A study of Mus musculus with 6 samples.

Results

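The genes described here encode the mGluR6 signalling complex of ON bipolar cells, and they were chosen by name: *Grm6*, *Trpm1*, *Nyx*, *Gpr179*, *Lrit3*, *Gnao1*, *Rgs7*, *Rgs11* and *Rgs7bp*, 9 of the 31169 genes in the deposited count table. ON bipolar cells are the retinal interneurons that depolarize when light falls on the photoreceptors that contact them. In the dark, photoreceptors release glutamate, which binds the metabotropic receptor mGluR6 on the bipolar cell dendrite, activates the G protein alpha subunit Gαo and keeps the cation channel TRPM1 closed. Light stops the release, RGS proteins speed the return of Gαo to its inactive state, and TRPM1 opens. Loss of mGluR6, TRPM1, nyctalopin, GPR179 or LRIT3 is a known cause of congenital stationary night blindness.

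The libraries came from whole retina of C57BL/6 mice. Each eye had received an injection into the anterior chamber at 1 month of age, either of saline or of 15 µm polystyrene microbeads, which obstruct aqueous outflow and raise intraocular pressure, and tissue was taken 4 weeks later, at 2 months of age. The comparison asked how transcript levels in saline retina and microbead retina differ, with 3 libraries in each group. The labels name no transgene or deletion in either group. The records do not say whether libraries came from separate animals, so the p-values measure only the spread between these samples. The rod marker genes, the defining genes of the most numerous retinal cells, summed to between 51250 and 77350 CPM (counts per 1000000 counts) in every library.

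Total counts ran from 36085737 to 46481382 in saline libraries and from 13574949 to 19834366 in microbead libraries. Mitochondrial genes took 3.19% to 3.57% of the counts in saline and 8.90% to 10.6% in microbead. In the sample descriptions, library names come in one series for saline and in another for microbead, so that series, depth, mitochondrial share and injection cannot be told apart. Of the genes in the table, 17707 passed the filter on low counts and entered the quasi-likelihood test of edgeR, and a gene is said to have risen or fallen where its Benjamini-Hochberg adjusted p was under 0.05 over all tested genes. By this rule 12.8% of tested genes changed, 6.46% higher and 6.31% lower in microbead, and the median log2 fold change (microbead over saline, here and throughout) over all tested genes was -0.03. In 37.8% of tested genes the groups did not overlap, meaning that every library of one group lay above every library of the other. The count of changed genes rested on single libraries: of 2261 with all libraries, 46 were called without microbead replicate 3 and 293 without saline replicate 2.

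All 9 complex genes passed the filter on low counts. *Rgs11* rose, *Nyx* fell, and the other 7 did not pass the test, so that 1 of 9 was called higher and 1 of 9 lower beside the shares of all genes given above. The groups did not overlap for *Nyx*, *Rgs7* and *Rgs11*, beside 37.8% of all tested genes. The median log2 fold change over the 9 genes was 0.06, with single genes between -1.20 and 1.22. Their summed level was 1316 ± 138 CPM (SD, n = 3) in saline and 1396 ± 183 CPM (SD, n = 3) in microbead, and the ranges, 1161 to 1425 CPM and 1233 to 1593 CPM, overlapped. Because whole retina was measured, fewer ON bipolar cells and less RNA per cell cannot be told apart. *Gnao1*, *Rgs7* and *Rgs7bp*, for example, are also transcribed by other retinal neurons. The cell source was not measured for any of the 9 genes, *Lrit3* included, so no value here can be assigned to ON bipolar cells alone.

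**Figure D1:**
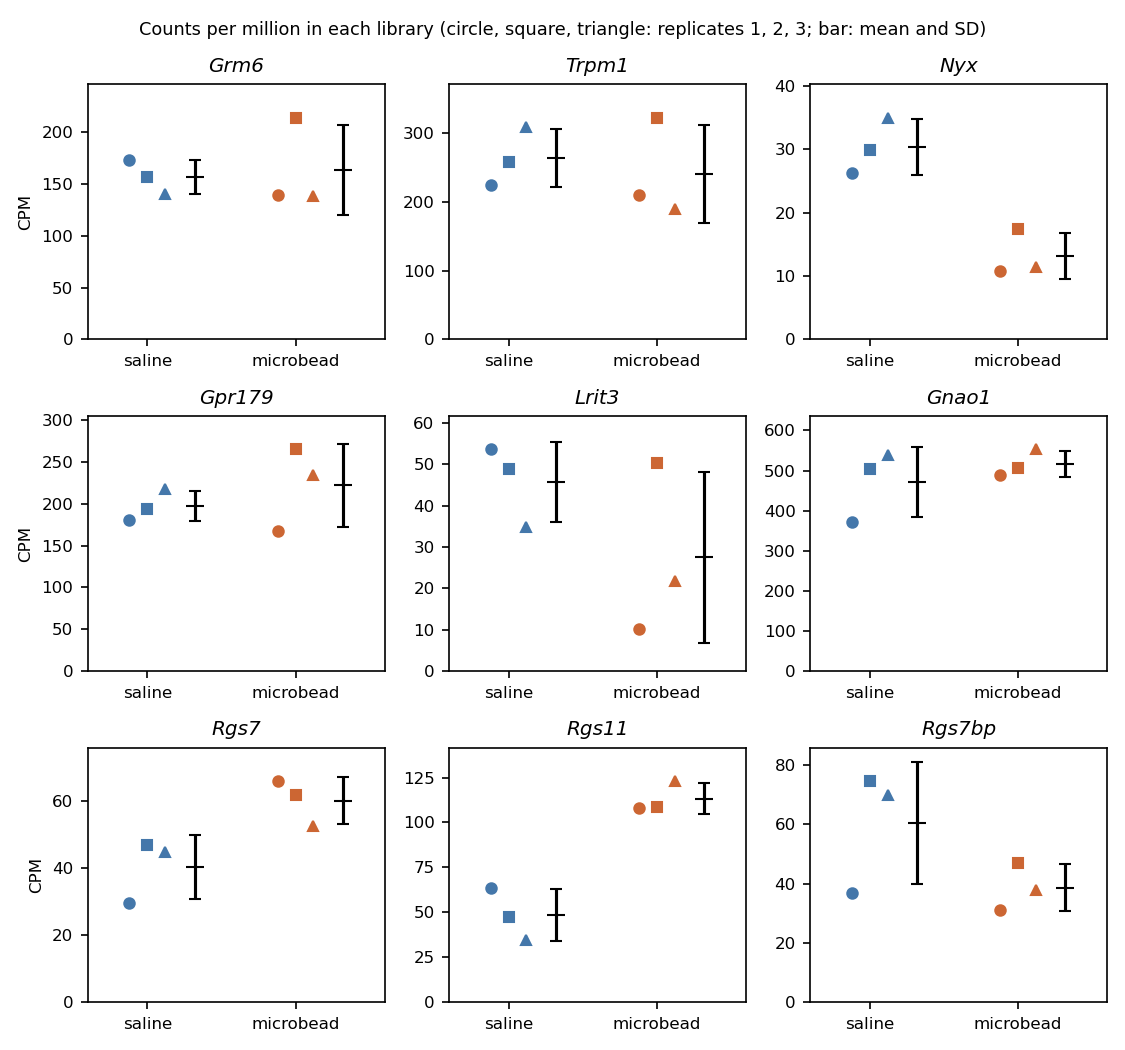
CPM of each of the 9 complex genes (vertical axis, starting at 0) in saline (blue) and microbead (orange) libraries, with replicates 1, 2 and 3 as circle, square and triangle and the mean with its SD as a black bar. For *Nyx* every microbead library lies below every saline library, for *Rgs7* and *Rgs11* every one lies above, and for *Lrit3* the microbead libraries spread from 10.2 to 50.3 CPM.

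The promoter of *Grm6* and of *Trpm1* is shown because their products are the receptor and the channel of the cascade, and that of *Nyx* because it was the member that fell. Each is the 250 bases before the start of a RefSeq transcript, 5′ to 3′ on the coding strand, in build GRCm38.p6. Capitals mark TAATC, the core letters bound by homeodomain factors of the CRX and OTX type, or GATTA, the same letters on the other strand. A match is only a description of the letters.
Grm6, chr11:50850435-50850684, plus strand: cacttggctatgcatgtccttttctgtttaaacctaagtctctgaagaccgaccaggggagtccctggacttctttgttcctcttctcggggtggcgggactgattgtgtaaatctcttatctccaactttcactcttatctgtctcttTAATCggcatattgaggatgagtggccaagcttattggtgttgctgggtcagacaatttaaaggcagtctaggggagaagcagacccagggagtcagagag
Trpm1, chr7:64153585-64153834, plus strand: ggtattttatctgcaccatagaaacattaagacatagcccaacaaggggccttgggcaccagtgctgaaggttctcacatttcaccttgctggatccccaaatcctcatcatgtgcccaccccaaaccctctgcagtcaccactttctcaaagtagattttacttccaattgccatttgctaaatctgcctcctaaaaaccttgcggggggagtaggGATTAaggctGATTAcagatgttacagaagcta
Nyx, chrX:13460840-13461089, plus strand: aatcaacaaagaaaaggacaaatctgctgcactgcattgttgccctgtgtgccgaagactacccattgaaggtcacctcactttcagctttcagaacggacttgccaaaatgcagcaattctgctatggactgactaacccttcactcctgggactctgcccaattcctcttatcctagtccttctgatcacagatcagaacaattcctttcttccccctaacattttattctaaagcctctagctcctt
The *Grm6* window holds 1 such match and the *Trpm1* window 2, while the *Nyx* window holds 0. A second *Trpm1* start, with the window chr7:64185209-64185458, has 1 match, and the *Lrit3* window has 1. RefSeq windows were found for 8 of the 9 genes, with 9 windows in all, of which 4 held TAATC on either strand. Of the 32851 windows of the same length in the table, 19.8% held it. The bHLH factor motif CANNTG, which reads as itself on the opposite strand and can share its first or last base with a TAATC match, was in 8 of the 9 windows and in 66.2% of all. The *Nyx* window was the one that lacked it. The RefSeq start of *Nyx* lies upstream of the GENCODE start given with its values.

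*Grm6*, which encodes the glutamate receptor mGluR6 (ENSMUSG00000000617.14, chr11:50850685-50866208, plus strand), was measured at 172.9, 156.5 and 140.1 CPM in saline libraries 1 to 3 and at 139.1, 213.8 and 138.0 CPM in microbead libraries 1 to 3. Microbead library 2 was the highest of the 6 and the other microbead libraries lay just below the lowest saline library, so the groups overlapped. The means were 156.5 ± 16.4 and 163.7 ± 43.4 CPM (SD, n = 3 each), and the log2 fold change of 0.06 (SE 0.21, adjusted p = 0.867, edgeR) did not pass the test. Its interval of 2 standard errors ran from -0.36 to 0.48. Leaving out 1 library at a time moved the estimate between -0.16 and 0.17, so its sign was not fixed. The antisense gene *Gm12660* covers 599 exonic bases of *Grm6*, 11.0% of its exons. *Gm12660* rose, with a log2 fold change of 2.18 (SE 0.62, adjusted p = 0.0478, edgeR). Its level was 1.11 to 1.83 CPM in saline and reached 13.0 CPM in microbead library 2, the library in which *Grm6* was highest. How strand entered the counting is not given in the sources used here, and reads of the pair could not be told apart without it.

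*Trpm1* (ENSMUSG00000030523.18, chr7:64153835-64269775, plus strand) encodes the cation channel that the cascade closes. It was at 225.4, 258.5 and 309.6 CPM in saline and at 210.4, 322.9 and 190.1 CPM in microbead. Microbead library 2 was again above every saline library and the other microbead libraries were below them. The means of 264.5 ± 42.4 and 241.1 ± 71.5 CPM (SD, n = 3 each) gave a log2 fold change of -0.13 (SE 0.23, adjusted p = 0.733, edgeR), with 2 standard errors reaching from -0.60 to 0.33. *Trpm1* is also known from melanocytes. The pigment epithelium and melanocyte markers, 0 of 8 of which were called, summed to 4.52, 12.4 and 57.1 CPM in saline libraries 1 to 3 and to between 23.2 and 34.8 CPM in microbead. Saline library 3, with the highest *Trpm1* of its group, also had the highest marker sum. The microbead libraries did not match in this way: *Trpm1* was highest in library 2, with a marker sum of 26.9 CPM. The marker sum was highest in microbead library 1, at 34.8 CPM, where *Trpm1* was at 210.4 CPM. The part of such cells in the *Trpm1* value was not tested. *Mir211*, the miRNA hosted by a *Trpm1* intron, had 0 to 4 counts in every library. These were poly(A)-enriched libraries, so the counts do not give the level of the mature miRNA.

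*Nyx* (ENSMUSG00000051228.5, chrX:13466110-13489313, plus strand) encodes nyctalopin, a leucine-rich repeat protein on the dendritic tips that TRPM1 needs to gather there. Its level was 26.2, 29.9 and 34.9 CPM in saline and 10.8, 17.4 and 11.4 CPM in microbead. Every microbead library lay below every saline library. *Nyx* fell from 30.4 ± 4.41 to 13.2 ± 3.66 CPM (SD, n = 3 each), a 2.30-fold lower level (log2 fold change -1.20, SE 0.24, adjusted p = 0.0178, edgeR). The interval of 2 standard errors ran from -1.68 to -0.73. With 175 to 241 counts in the microbead libraries, counting error was at most 7.56% of the value, smaller than the spread between libraries. The log2 fold change stayed between -1.44 and -1.08 when any 1 library was left out. The adjusted p then ran from 0.0131 to 0.0929 and was over 0.05 without saline replicate 2 (0.0597), microbead replicate 1 (0.0553) or microbead replicate 3 (0.0929). With the mitochondrial genes left out of the table, the fold change was -1.18 (adjusted p = 0.0188, edgeR).

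*Lrit3* (ENSMUSG00000093865.7, chr3:129787881-129804030, minus strand) encodes another leucine-rich repeat protein, which nyctalopin and TRPM1 need to reach the synapse. It was at 53.6, 48.7 and 34.9 CPM in saline and at 10.2, 50.3 and 21.8 CPM in microbead. Microbead library 2 lay within the saline range and the others below it. The means were 45.8 ± 9.70 and 27.5 ± 20.7 CPM (SD, n = 3 each), and the log2 fold change of -0.74 (SE 0.46, adjusted p = 0.303, edgeR) did not pass the test. Its interval of 2 standard errors, from -1.67 to 0.18, was the widest of the 9. Single libraries decided the value, which was -0.35 without microbead replicate 1 and -1.50 without microbead replicate 2 (adjusted p = 0.550 and 0.0559, edgeR). Without the filter on low counts *Lrit3* passed the threshold (adjusted p = 0.0348). The coefficient of variation was 21.2% among saline and 75.2% among microbead libraries.

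*Gpr179* (ENSMUSG00000070337.4, chr11:97332109-97352077, minus strand) encodes the orphan receptor that holds the RGS proteins at the dendritic tips. Its values were 180.9, 194.1 and 217.3 CPM in saline and 167.7, 265.5 and 234.1 CPM in microbead. The microbead libraries lay on both sides of the saline range. The means were 197.4 ± 18.4 and 222.4 ± 50.0 CPM (SD, n = 3 each), with a log2 fold change of 0.17 (SE 0.20, adjusted p = 0.599, edgeR) and 2 standard errors from -0.23 to 0.58.

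*Gnao1* (ENSMUSG00000031748.16, chr8:93809966-93969388, plus strand) encodes Gαo, the G protein alpha subunit that mGluR6 activates. It was at 372.1, 503.9 and 538.9 CPM in saline and at 489.5, 506.0 and 553.2 CPM in microbead. Only saline library 1 stood below the rest. The means of 471.6 ± 88.0 and 516.2 ± 33.1 CPM (SD, n = 3 each) gave a log2 fold change of 0.13 (SE 0.19, adjusted p = 0.677, edgeR). Without saline replicate 1 the estimate was -0.02. That library also had the lowest sum of amacrine markers, 879.4 CPM against 1098 to 1479 CPM in the others, and of ganglion cell markers, 284.7 CPM against 710.7 to 1033 CPM. The part of these cells in the *Gnao1* value was not tested.

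*Rgs11* (ENSMUSG00000024186.15, chr17:26202951-26211324, plus strand) encodes one of the GTPase-accelerating proteins that, with Gβ5, return Gαo to its inactive state. It was at 63.7, 47.6 and 34.7 CPM in saline and at 108.2, 108.5 and 123.2 CPM in microbead. All microbead libraries stood above all saline libraries, and they were closer to each other than the saline libraries were. *Rgs11* rose from 48.7 ± 14.5 to 113.3 ± 8.56 CPM (SD, n = 3 each), 2.33-fold (log2 fold change 1.22, SE 0.23, adjusted p = 0.0159, edgeR). The interval of 2 standard errors ran from 0.77 to 1.67. Leaving out each library in turn gave 1.02 to 1.46, with an adjusted p from 0.00713 to 0.0812 that was over 0.05 without saline replicate 2 (0.0602) or microbead replicate 3 (0.0812). With the mitochondrial genes left out, the fold change was 1.24 (adjusted p = 0.0163, edgeR). The protein-coding gene *Arhgdig*, on the opposite strand, shares 138 exonic bases with *Rgs11*, 3.28% of its exons. *Arhgdig* was at 5.60 to 10.3 CPM in saline and 7.44 to 8.80 CPM in microbead and did not pass the test (adjusted p = 0.993, edgeR).

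*Rgs7* (ENSMUSG00000026527.13, chr1:175059087-175492500, minus strand) encodes the other GTPase-accelerating protein of the complex. Its level was 29.5, 46.9 and 44.8 CPM in saline and 66.0, 61.7 and 52.6 CPM in microbead. The groups did not overlap, with the lowest microbead library just above the highest saline library. The means were 40.4 ± 9.52 and 60.1 ± 6.86 CPM (SD, n = 3 each), and the log2 fold change of 0.57 (SE 0.21, adjusted p = 0.0992, edgeR) missed the threshold. It missed it under each of the 8 other ways of processing all 6 libraries (adjusted p from 0.0800 to 0.139) and with any 1 library left out, when the estimate stayed between 0.39 and 0.69.

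*Rgs7bp* (ENSMUSG00000021719.8, chr13:104945904-105054930, minus strand) encodes a membrane anchor of the RGS7 family. It was at 36.8, 74.7 and 70.0 CPM in saline and at 31.0, 46.9 and 38.0 CPM in microbead. Saline library 1 lay inside the microbead range and the other saline libraries above it. The means were 60.5 ± 20.6 and 38.7 ± 7.97 CPM (SD, n = 3 each), and the log2 fold change of -0.65 (SE 0.28, adjusted p = 0.144, edgeR) did not pass the test. The call rested on 1 library and on the filter: the adjusted p was 0.0240 without saline replicate 1, with a log2 fold change of -0.91, and 0.0279 with no filter on low counts.

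**Figure D2:**
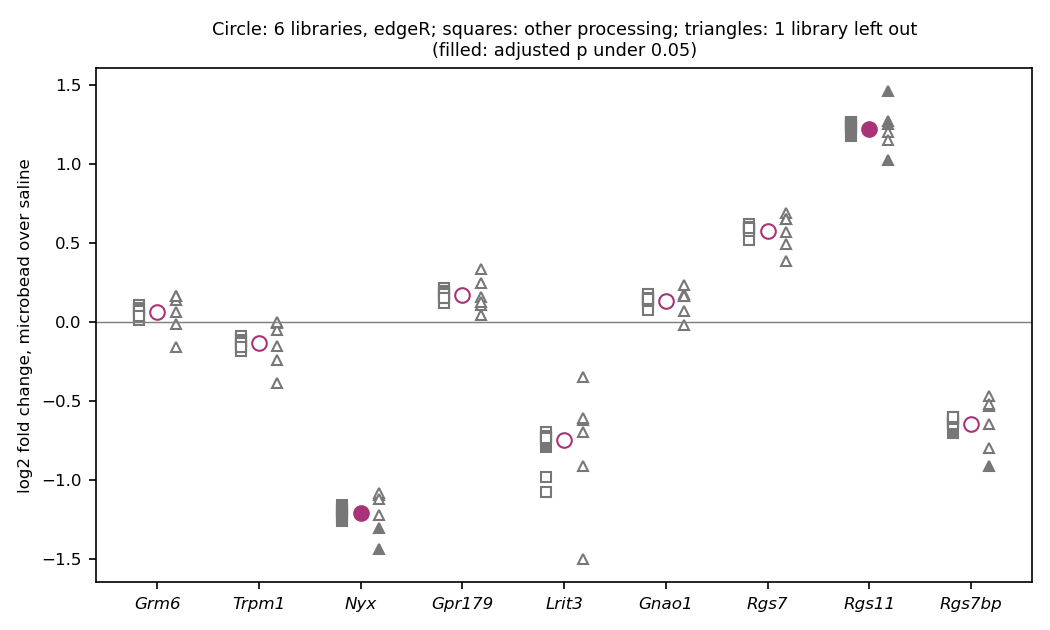
Log2 fold change (microbead over saline, vertical axis) of each of the 9 genes with all 6 libraries in edgeR (circle), under 8 other ways of processing all libraries (squares) and with each library left out (triangles), with filled symbols for an adjusted p under 0.05. *Nyx* keeps to -1.44 to -1.08 and *Rgs11* to 1.02 to 1.46, while *Lrit3* ranges from -1.50 to -0.35 and *Grm6*, *Trpm1* and *Gnao1* lie on both sides of 0.

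The complex genes were also set in order by level, as CPM per kb of merged exons, since CPM alone cannot be compared between genes of unequal length. In saline the order of mean levels was *Gnao1* (42.7 ± 7.96 CPM per kb, SD, n = 3), *Grm6* (28.9 ± 3.03), *Gpr179* (20.7 ± 1.93), *Trpm1* (17.9 ± 2.88), *Lrit3* (16.7 ± 3.54), *Rgs11* (11.6 ± 3.45), *Rgs7bp* (8.55 ± 2.92), *Rgs7* (6.71 ± 1.58) and *Nyx* (5.86 ± 0.851). *Gnao1* against *Grm6* and *Grm6* against *Gpr179* were the neighbours in that order whose libraries did not overlap, and every later neighbour overlapped. In microbead *Rgs11* came next after *Gnao1* and *Grm6*, at 26.9 ± 2.03 CPM per kb (SD, n = 3), while those 2 were at 46.7 ± 2.99 and 30.2 ± 8.01. *Rgs11* overlapped *Grm6* above it and *Gpr179* below it, at 23.3 ± 5.23. *Nyx* was the lowest in both groups, at 2.54 ± 0.705 CPM per kb in microbead, where it no longer overlapped its neighbour *Rgs7bp* at 5.46 ± 1.13. The order depended on the length used. For *Trpm1*, divided by its longest transcript instead of its merged exons, the level was 46.3 CPM per kb in saline and 42.2 in microbead, next after *Gnao1*. By the same length *Rgs11* was above *Grm6* in microbead (41.9 and 37.8 CPM per kb), *Rgs7* was above *Lrit3* in microbead (16.3 and 11.2), and *Rgs7* was above *Rgs7bp* in saline (11.0 and 8.55). *Trpm1* has 23 annotated transcripts, whose merged exons span 14746 bases against 5711 in the longest one.

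Within each library the level of one member can be set against another, on the same CPM per kb scale, as a description without a test. *Nyx* was at 15.8%, 20.0% and 26.1% of *Grm6* in saline and at 8.13%, 8.51% and 8.61% in microbead. The microbead values were nearly equal although *Grm6* itself differed by a wide margin between those libraries. *Lrit3* was at 61.4%, 61.6% and 49.3% of *Grm6* in saline and at 14.5%, 46.6% and 31.3% in microbead, so that groups which overlapped in CPM did not overlap in the ratio. The gap rested on microbead library 2, where *Lrit3* in CPM lay within the saline range. *Grm6*, the divisor, was at its highest there, at 213.8 CPM. *Trpm1* stood at 63.3% ± 16.8 of *Grm6* in saline and 53.9% ± 2.85 in microbead (SD, n = 3 each), and *Gpr179* at 72.7% ± 14.5 and 78.5% ± 15.5. Both ratios overlapped between the groups. With the longest transcript as length, *Trpm1* was at 130.5% of *Grm6* in saline and 111.2% in microbead, so which of them was higher depended on the length. *Rgs11* made up 75.6%, 59.2% and 52.6% of the sum of *Rgs7* and *Rgs11* in saline and 70.1%, 71.6% and 77.0% in microbead. Saline library 1 lay within the microbead range there, although the absolute level of *Rgs11* did not overlap.

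**Figure D3:**
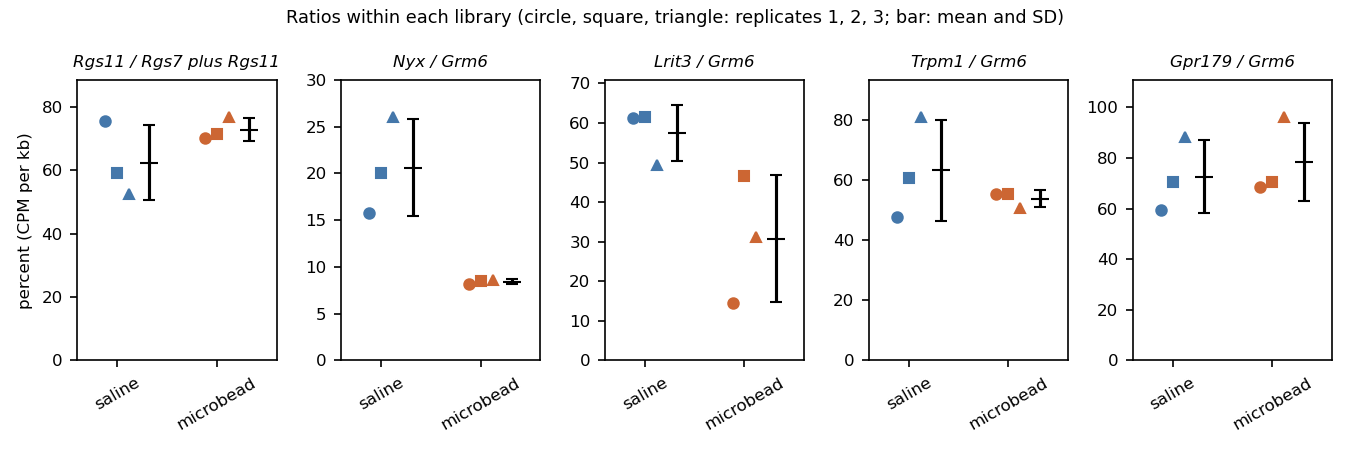
Ratio of one member to another within each library, in percent of CPM per kb (vertical axis, starting at 0), for saline (blue) and microbead (orange), with replicates 1, 2 and 3 as circle, square and triangle and mean and SD as a black bar. *Nyx* over *Grm6* is 8.13% to 8.61% in microbead against 15.8% to 26.1% in saline. *Lrit3* over *Grm6* does not overlap either, by a narrow gap (46.6% in microbead library 2, 49.3% in saline library 3), and the other ratios overlap.

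Other genes assigned by name to the cascade were taken as a list of 8. Which retinal cells transcribe them was not measured here. Of the 8 genes, 0 rose, 1 fell and 7 did not pass the test, beside 12.8% of all tested genes called. Their median log2 fold change was -0.22. The gene that fell was *Lrit2*, a leucine-rich repeat relative of *Lrit3*, from 247.3 ± 18.2 to 166.0 ± 7.21 CPM (SD, n = 3 each; log2 fold change -0.58, SE 0.16, adjusted p = 0.0433, edgeR). Its groups did not overlap, but it passed the threshold in 0 of the 6 fits that left out a library. *Gng13*, which encodes the G protein gamma subunit of these cells, had a log2 fold change of 0.94 (adjusted p = 0.0707, edgeR), and *Pcp2*, a modulator of Gαo, one of 0.59 (adjusted p = 0.0733). Without microbead replicate 1 these were 0.46 and 0.38 (adjusted p = 0.168 and 0.155, edgeR). *Gnb5*, the obligate partner of the RGS7 family, was at -0.24 (adjusted p = 0.416). *Rgs9bp*, the anchor that holds RGS11 as well as RGS9, was at -0.43 (adjusted p = 0.197). *Gnb3*, the beta subunit, was at 0.24 (adjusted p = 0.665), and saline library 1 stood apart, at 958 CPM where saline libraries 2 and 3 had 360.0 and 393.5 CPM. Without saline replicate 1 its log2 fold change was 0.84 (adjusted p = 0.0269, edgeR), and without saline replicate 2 it was -0.00352, so the *Gnb3* call turned on 1 library.

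The partners of the complex on the photoreceptor terminal and in the cleft were taken as a list of 8, of which 7 were tested and *Cabp4* did not pass the filter. None rose and 1 fell, beside 12.8% of all tested genes called, with a median of 0.26. *Egflam*, which encodes the cleft protein pikachurin, fell from 332.6 ± 62.3 to 181.2 ± 16.5 CPM (SD, n = 3 each; log2 fold change -0.88, SE 0.19, adjusted p = 0.0227, edgeR), and 2 of the 6 fits that left out a library called it. *Cacna1f*, the calcium channel of the photoreceptor terminal, was at 267.4 ± 55.6 and 466.6 ± 113.9 CPM (SD, n = 3 each; log2 fold change 0.80, SE 0.24, adjusted p = 0.0544, edgeR), with no overlap between the groups. It passed the threshold under 5 of the 8 other ways of processing all 6 libraries, with adjusted p from 0.0119 by DESeq2 to 0.0493 with RLE scaling, and without saline replicate 1 (0.0379) or microbead replicate 1 (0.0479). *Elfn1* and *Elfn2*, adhesion proteins that bind mGluR6 across the cleft, had log2 fold changes of 0.37 and -0.58 (adjusted p = 0.419 and 0.451).

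**Figure D4:**
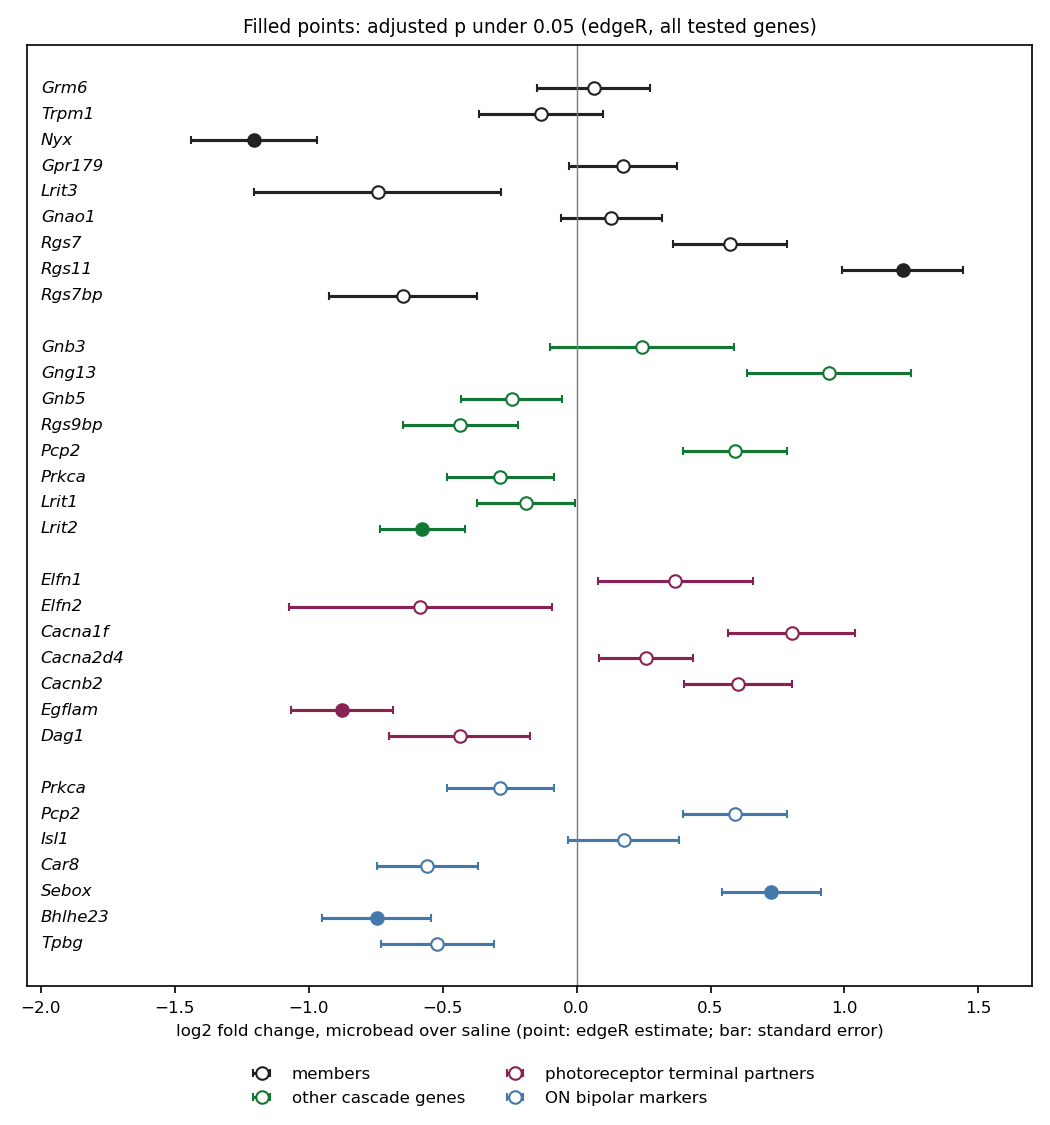
Log2 fold change (microbead over saline, horizontal axis) with its standard error for the 9 complex genes (black), other cascade genes (green), photoreceptor terminal partners (purple) and ON bipolar markers (blue), with filled points for an adjusted p under 0.05 over all tested genes. *Nyx* at -1.20 and *Rgs11* at 1.22 are the filled black points, and *Lrit2*, *Egflam*, *Sebox* and *Bhlhe23* are the filled points of the other lists. *Prkca* and *Pcp2* are drawn both as other cascade genes and as ON bipolar markers.

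ON bipolar marker genes outside the complex were read beside these values. *Prkca* and *Pcp2* among them were also in the list of other cascade genes, so these lists are not independent. The groups did not overlap for 5 of the 7 ON bipolar markers, beside 37.8% of all tested genes, with log2 fold changes of either sign and a median of -0.28. The 7 markers summed to 652.9 to 866.3 CPM in saline and to 641.0 to 789.2 CPM in microbead, ranges that overlapped, with a log2 ratio of the means of -0.09. *Prkca* alone, at 398.7 CPM in saline, made up much of that sum. *Sebox*, a homeobox factor of these cells, rose (log2 fold change 0.73, SE 0.19, adjusted p = 0.0356, edgeR). *Bhlhe23*, a bHLH factor that rod bipolar cells need, fell (log2 fold change -0.75, SE 0.20, adjusted p = 0.0429, edgeR). Each was called in 1 of the 6 fits that left out a library, and the other 5 markers did not pass the test. Calls thus numbered 2 of 7, beside 12.8% of all tested genes. The OFF bipolar markers gave 1 call of 7, near that share of all genes: *Tacr3*, a tachykinin receptor, which fell (log2 fold change -0.89, adjusted p = 0.0325, edgeR). The sum of the OFF bipolar markers overlapped as well, at 285.2 to 355.5 CPM in saline and 281.3 to 330.0 CPM in microbead. The sum of the horizontal cell markers did not overlap between the groups, at 97.6 to 149.4 CPM in saline and 54.0 to 93.0 CPM in microbead. *Calb1* made up most of that sum, with means of 94.7 CPM in saline and 61.8 CPM in microbead. Alone it overlapped between the groups and did not pass the test (adjusted p = 0.154, edgeR), while 1 of the 4 markers fell. The part of horizontal cells in the values above was not tested.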

How the data were processed

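Poly(A)-enriched, stranded libraries were made from whole retina of 3 saline and 3 microbead samples. The authors aligned the reads with STAR 2.5.3a to GRCm38.p5 with the GENCODE annotation, counted them with featureCounts (version given as 1.15.2), and deposited raw counts per gene and library without normalization. How strand and multi-mapped reads were treated is not given in the sources used here. The deposited table also holds the authors' DESeq2 comparison (mean, fold changes, p-values), which was not used.

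Groups were taken from the sample labels. Low counts were removed by filterByExpr (min.count 10, min.total.count 15), and the rest scaled by TMM and tested two-sided, without covariates, by quasi-likelihood in edgeR 4.0.16 (R 4.3.3). Benjamini-Hochberg adjustment was made over all 17707 tested genes, with a threshold of 0.05. CPM are counts per 1000000 of the scaled library size. CPM per kb divide by merged exon length from GENCODE vM21 (GRCm38). The intervals given are 2 standard errors on either side. No 100-base stretch of the 9 genes' transcripts occurs, in the sense direction, in a transcript of an annotated gene outside the 9 (0% for each). The opposite strand was not searched, so this leaves out the antisense overlaps given above.

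The members and lists were chosen with earlier results of these data known. The genes named are the 9 members, called genes of the cascade and ON bipolar lists, the 2 largest changes of each other list and the 5 genes most like the members in pattern. One of the latter and the pan-bipolar marker list are not reported here. *Gng13*, *Pcp2*, *Prkca*, *Gnb3*, *Gnb5*, *Rgs9bp*, *Elfn1*, *Elfn2*, *Cabp4*, *Calb1*, *Gnai3*, *Gpr158* and the overlapping genes were named outside this rule, after their values were seen. Alternatives were RLE and upper-quartile scaling, mitochondrial genes left out, no filter, DESeq2 1.42.0, a stricter filter (at least 10 counts in every library), limma-voom (limma 3.58.1), a replicate block and each library left out. The fit was also run on simulated counts with known changes, and the share of those changes that it found is not given here. No library was a copy of another: within groups, chi-square per degree of freedom between libraries was 22.0 or more. Counting error is below the spread between libraries for all 9 genes, and depth is given in the report.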

Additional observations from a re-analysis of the deposited data

How the results depend on the processing

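With all 6 libraries kept, 70 of 72 values of the 9 complex genes kept their direction and their side of the threshold under the 8 alternatives. The other 2 were *Lrit3* and *Rgs7bp* with no filter, where 3 complex genes were called lower. The log2 fold change of *Lrit3* was then -0.79 in place of -0.74, with an SE of 0.26 in place of 0.46. That of *Rgs7bp* was -0.70 in place of -0.65, with an SE of 0.23 in place of 0.28. The median log2 fold change of all genes was -0.23 in that fit. *Nyx* (adjusted p from 0.000119 to 0.0424) and *Rgs11* (3.5e-05 to 0.0436) were called under each of the 8. With a library left out, 44 of 54 did so: 5 lost the call, 1 gained it and 4 changed sign. Complex genes called lower then numbered 0 to 2 and called higher 0 to 1. Signs turned for *Grm6* (-0.16 to 0.17), *Trpm1* (-0.39 to 0.00256), *Gnao1* (-0.0174 to 0.235), *Gnb3* (-0.00352 to 0.84) and *Gpr158* (-0.64 to 0.00559). Over all genes, 2261 were called, 3720 with no filter, 3621 by DESeq2 and 46 to 2621 with a library left out. Other cascade genes called numbered 1, but 0 with upper-quartile scaling or without mitochondrial genes, 2 with no filter, 3 by DESeq2 and 0 to 1 with a library left out. Photoreceptor terminal partners called numbered 1, but 2 with RLE scaling, upper-quartile scaling, no filter or at least 10 counts, 3 by DESeq2 and 0 to 2 with a library left out. Relatives called numbered 2, but 1 with RLE scaling, upper-quartile scaling, voom or mitochondrial genes left out, 3 with no filter, and 0 to 2 with a library left out. ON bipolar markers called numbered 2, but 1 with upper-quartile scaling or voom, 3 with no filter or by DESeq2, and 0 to 1 with a library left out. OFF bipolar markers called numbered 1, and 0 to 2 with a library left out. Replicate numbers do not pair these samples: correlations of deviations between same-numbered libraries were -0.04, 0.14 and 0.01. With the replicate block 905 genes were called, 0 of the other cascade genes, relatives, ON bipolar and OFF bipolar markers, while no call among the complex genes changed and *Dkk3* (adjusted p = 0.0533, edgeR) and *Onecut2* (0.0667) lost theirs. The causes of these differences were not tested, except that leaving out a library leaves fewer samples. Counting error was at most 7.56% of a value for the complex genes, and listed genes with few counts, such as *Onecut1* with 2 in microbead library 1, are less precise.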

Other observations

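Relatives of the complex genes, taken as a list of 14 paralogs, gave 0 rises and 2 falls, beside 12.8% of all tested genes called. Their median log2 fold change was -0.25. The falls were those of *Gnai3* (log2 fold change -0.80, SE 0.20, adjusted p = 0.0345, edgeR) and *Gnai1* (-0.96, SE 0.28, adjusted p = 0.0493), both inhibitory G protein alpha subunits. *Gnai1* was called in 1 of the 6 fits that left out a library and *Gnai3* in 2. *Gnai1* was at 23.8, 44.0 and 54.2 CPM in saline and 21.7, 20.9 and 20.0 CPM in microbead. *Gpr158*, the closest relative of *Gpr179*, was at -0.31 (adjusted p = 0.540). *Rgs9*, the GTPase-accelerating protein of photoreceptors and the largest change of this list, was at 391.4, 413.2 and 414.1 CPM in saline and at 49.2, 398.1 and 137.1 CPM in microbead (log2 fold change -1.06, SE 0.57, adjusted p = 0.233, edgeR). Microbead library 2 was close to the saline values and the other microbead libraries were far below them. Without that library the log2 fold change of *Rgs9* was -2.10 (adjusted p = 0.0435), and with no filter on low counts its adjusted p was 0.00450. *Lrit3* (10.2, 50.3 and 21.8 CPM), *Elfn2* (8.29, 50.9 and 35.1 CPM) and the horizontal cell gene *Onecut1* (0.103, 2.09 and 0.455 CPM) stood in the same order over the microbead libraries, as was seen only after their values were known. *Gpr179* stood in that order as well, and other listed genes did not. The share of all genes in that order was not counted, so no common pattern can be read from it.

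The genes whose pattern over the 6 libraries was most like the mean pattern of the complex genes included *Sgip1*, *Tm6sf1*, *Dis3* and *Etnk1*. Their root mean square difference from it, in centred log2 CPM, was 0.0471, 0.0716, 0.0718 and 0.0752, against a median of 0.395 over genes with at least 1 CPM. The complex genes themselves were at 0.160 (*Gpr179*), 0.161 (*Trpm1*), 0.170 (*Grm6*), 0.242 (*Gnao1*), 0.367 (*Rgs7bp*), 0.429 (*Rgs7*), 0.577 (*Nyx*), 0.707 (*Lrit3*) and 0.763 (*Rgs11*). The last 4 of these lay further from the common pattern than the median gene did.

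Among the marker lists of other retinal cells, 1 of 7 rod, 1 of 5 cone, 1 of 4 horizontal cell and 1 of 5 Müller glia markers were called, beside 12.8% of all genes tested. The cone arrestin gene *Arr3* rose from 97.2 to 263.9 CPM (log2 fold change 1.44, adjusted p = 0.0126, edgeR), while *Pde6h* was at -0.44 (adjusted p = 0.156) and the cone marker sum overlapped between groups, at 960.3 to 1163 and 1061 to 1229 CPM. The rod factor gene *Nrl* fell (-0.97, adjusted p = 0.0192), as did *Dkk3* of Müller glia (-1.03, adjusted p = 0.0242) and *Onecut2* of horizontal cells (-1.36, adjusted p = 0.0335). With a library left out, *Arr3* was called in 5 of 6 fits, *Nrl* in 3, and *Dkk3* and *Onecut2* in 2 each, and all 4 lost the call without microbead replicate 3 (adjusted p = 0.0700, 0.0883, 0.113 and 0.109). *Cnga1* (-0.62, adjusted p = 0.0941), *Aqp4* (-0.46, adjusted p = 0.175) and *Onecut1* (-1.42, adjusted p = 0.273) did not pass the test. Of the amacrine markers 0 of 7 were called, with *Gad1* at -0.78 (adjusted p = 0.0720) and *Slc32a1* at -0.68 (adjusted p = 0.0829), and of the ganglion cell markers 0 of 6, with *Sncg* at 1.33 (adjusted p = 0.103) and *Rbpms* at 0.71 (adjusted p = 0.298). Without saline replicate 1, *Gad1*, *Slc32a1* and *Vsx1* passed the threshold (adjusted p = 0.0155, 0.0314 and 0.0464), as did *Cnga1* without microbead replicate 1 (0.0445). *Vsx1* of OFF bipolar cells was at -0.52 (adjusted p = 0.0976). *Mlana* and *Pmel* of melanocytes were at 1.58 and 0.94 (adjusted p = 0.355 and 0.282).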
